A study of Mus musculus with 36 samples.

Results

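The 33 genes described here are targets of the transcription factor p53 and genes of the DNA damage response, read in C2C12 myotubes with and without knockdown of the long non-coding RNA *Tug1*. They were chosen by name from the counts of the series, with a filter on low levels. A gene had to reach at least 1 CPM, its count scaled to a common library total, in at least 12 of the 36 libraries. All 33 members passed, among 13995 genes that did so of 55416 in all. C2C12 is a mouse myoblast line, and its myotubes are the multinucleate muscle cells that it forms in low serum. Every culture received an antisense locked nucleic acid (LNA) by transfection 1 day before day 4 of differentiation, either a negative control (control) or an LNA against *Tug1* (*Tug1* KD). On day 4 the wells were left with unconnected electrodes (Rest), or underwent 3 h of electrical pulse stimulation (EPS), an exercise-like stimulus. It was given at 13 V and 66 Hz with pulses of 2 ms, in trains of 5 s that alternated with pauses of 5 s. Stimulated wells were lysed at once, which is the EPS 0h group, or were left to recover for 3 h, which is the EPS 3h group. The 6 groups hold 6 libraries of poly-A RNA each, which the study describes as 3 wells from each of 2 independent experiments. The spread within a group is thus that of wells of 1 cell line and of these 2 experiments. The main tests below take the 6 libraries of a group as separate replicates, without a term for experiment. No group was left unstimulated through the recovery, and at EPS 3h stimulation and the later harvest cannot be told apart.

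The p53 protein is held at a low level by the ubiquitin ligase Mdm2 and its partner Mdm4, and it accumulates when DNA damage kinases modify it. It then raises the transcription of genes that stop the cell cycle, repair DNA, restrain or trigger apoptosis, or feed back on p53 itself, *Mdm2* among them. In muscle cells *Cdkn1a*, which makes the cyclin-dependent kinase inhibitor p21, is also part of the ordinary exit from the cell cycle during differentiation, and *Gadd45a* and *Cdkn1a* are known for their rise in muscle that has lost its nerve supply. Because p53 is controlled largely as a protein, mRNA levels do not give its activity.

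Library depth, as counts assigned to genes, lay between 17005079 and 24181167 (median 19439667.5). Values below are CPM after scaling with TMM factors, which set libraries to a common level from the bulk of their genes, given as the lowest and highest of the 6 libraries of a group with the median. Differences are log2 fold changes (log2FC) ± standard error from edgeR's quasi-likelihood model on all 36 libraries, and a gene was called when its false discovery rate (FDR), adjusted over the 13995 genes, was below 0.05. The targeted gene *Tug1* stood at 38.6 to 58.2 (median 47.7) CPM in Rest control and 23.9 to 33.3 (median 25.4) in Rest *Tug1* KD, with no overlap. The remaining level was 0.563-fold of control at Rest (log2FC -0.83 ± 0.17, FDR = 0.000915), 0.673-fold at EPS 0h (FDR = 0.0178) and 0.701-fold at EPS 3h (FDR = 0.0414). The libraries of the arms overlapped at both of these times. *Tug1* rose with EPS 3h in both arms, with a log2FC of 0.75 ± 0.17 in control and 1.06 ± 0.17 in *Tug1* KD. In all 6 groups replicates 1 to 3 parted from replicates 4 to 6 on the first principal component of the group-centred values, which held 37.5% of the variance. All 98 calls made on members below kept their sign in both of these replicate sets. The sets are parts of the libraries that gave the calls, so a shared sign is not separate support. Some estimates within a set were very small, as given with the genes. Rest *Tug1* KD replicate 6 was the highest library of its group for 18 of the 33 members, against 2 to 5 for each of the other five.

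p53 binds a response element of 2 half-sites of 10 bases, each with 3 purines, C, 2 bases that are A or T, G and 3 pyrimidines. The element was sought without a spacer within 2500 bases of the start site of each gene's canonical transcript in GRCm39, with C and G of each half-site fixed and up to 2 other bases off. The consensus reads the same on both strands, so 1 search covers both. It had at most 2 mismatches near 9 of the 33 members (27.3%) and near 759 of 13946 genes with a start site (5.44%). With 0 mismatches it was found near *Zmat3* among the members (3.03% against 0.129% of all genes), and with at most 1 near *Zmat3* and *Ccng1* (6.06% against 0.846%). *Zmat3*, *Ccng1*, *Plk2*, *Fas*, *Eda2r* and *Bax* are shown because their levels moved in different ways, as given with each gene below, and *Pmaip1*, *Perp* and *Pidd1* also held an element, the first called in 2 comparisons and the others in none. *Ccng1* held a further element in intron 1, and *Plk2* held a further one 1589 bases upstream. Each line gives the GRCm39 position and the 20 bases 5′ to 3′ on the gene's strand, with the fixed C and G of each half-site in capitals.
*Zmat3*, chr3:32418480-32418499, − strand, intron 1, 1418 bases past the start, 0 mismatches: aaaCaaGcccaggCatGtct
*Ccng1*, chr11:40646289-40646308, − strand, 161 bases upstream of the start, 1 mismatch: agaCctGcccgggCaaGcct
*Plk2*, chr13:110530928-110530947, + strand, 77 bases upstream of the start, 2 mismatches: gatCttGcttagaCttGttg
*Fas*, chr19:34269764-34269783, + strand, intron 1, 1715 bases past the start, 2 mismatches: gggCatGtacaaaCatGtca
*Eda2r*, chrX:96420140-96420159, − strand, intron 1, 689 bases past the start, 2 mismatches: gggCaaGtccgggCctGtgt
*Bax*, chr7:45115998-45116017, − strand, intron 1, 317 bases past the start, 2 mismatches: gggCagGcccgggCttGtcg
A match of letters is not a site of binding, and for members without one, *Cdkn1a* and *Mdm2* included, it says only that these letters are not in this window.

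Knockdown of *Tug1* moved few of these genes, and stimulation moved more of them down than up. At Rest 5 of 33 members were higher in *Tug1* KD than in control and 0 lower, where 5.54% of all genes were called higher and 4.47% lower. At EPS 0h 1 was higher and 3 lower (8.25% and 6.07% of all genes), and at EPS 3h 1 was higher and 3 lower (6.38% and 5.11%). The median log2FC of the members was 0.083 at Rest, 0.0033 at EPS 0h and -0.041 at EPS 3h, against -0.027, -0.0025 and -0.012 over all genes. The sign at Rest differed between the replicate sets, with a median of -0.011 in replicates 1 to 3 and 0.12 in the other set. In control myotubes 3 members rose and 10 fell at EPS 0h against Rest (20.5% and 18.4% of all genes), and 5 rose and 10 fell at EPS 3h (26.1% and 25.9%). In *Tug1* KD myotubes 3 rose and 15 fell at EPS 0h (24.4% and 21.2%), and 6 rose and 13 fell at EPS 3h (26.2% and 25.9%). During the recovery, from EPS 0h to EPS 3h, 5 rose and 6 fell in control (9.67% and 6.88%), and 5 rose and 4 fell in *Tug1* KD (8.59% and 7.13%). The map of log2FC shows these calls by gene. In these bulk samples fewer cells of a kind and less RNA per cell cannot be told apart. Comparisons with Rest within 1 arm share the Rest libraries, and those with EPS 0h share the EPS 0h libraries, so they are given side by side and not as separate support for each other.

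**Figure D1:**
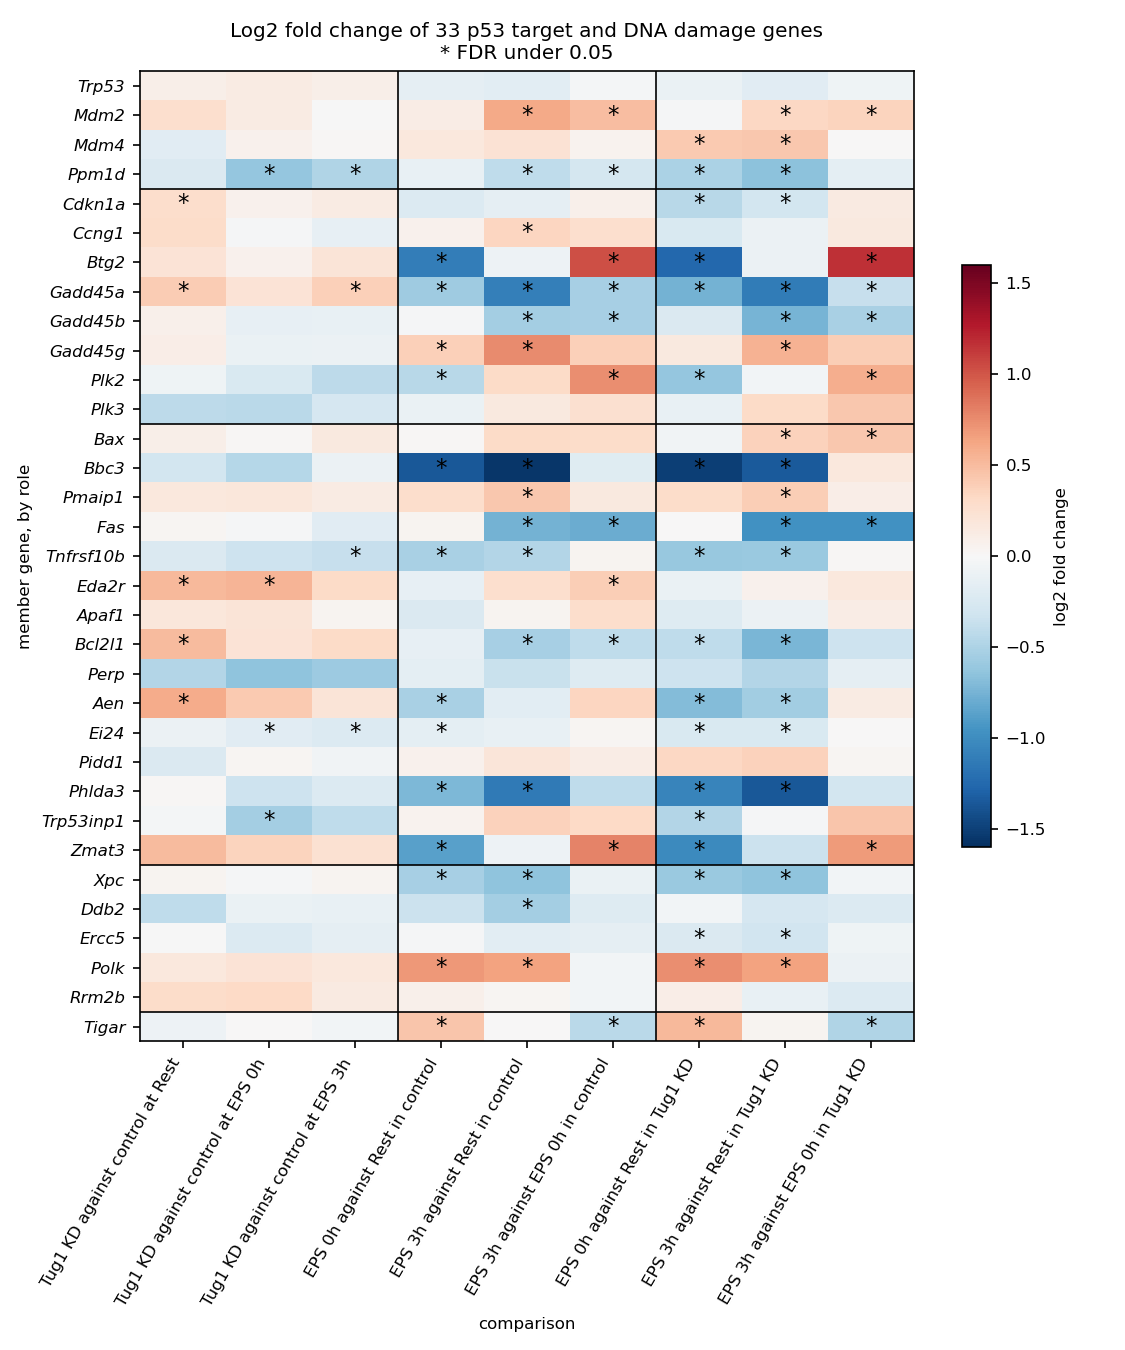
Log2 fold change of the 33 member genes (rows, grouped by role from p53 and its regulators at the top to metabolism at the bottom) in 9 comparisons of 2 groups (columns), with colour from blue (lower) to red (higher) and a star where the FDR was under 0.05. The 3 columns of *Tug1* KD against control hold 13 stars, and *Bbc3* at EPS 3h in control is the darkest cell, at -1.55.

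Among p53 and its regulators, *Trp53* itself was called in none of the 9 comparisons, and *Mdm2* rose late after EPS. *Ppm1d* was lower with *Tug1* KD at EPS 0h and EPS 3h but was not called at Rest. Against Rest it fell at both times in *Tug1* KD, and in control at EPS 3h but not at EPS 0h. *Trp53* (GRCm39 chr11:69469669-69482701, + strand), which encodes p53, stood at 92.9 to 123 (median 99.1) CPM in Rest control and 95.2 to 129 (median 107) in Rest *Tug1* KD. It was 82.9 to 103 (median 88.3) and 93.03 to 110.2 (median 97.5) at EPS 0h, control first. At EPS 3h the same pair was 78.98 to 101 (median 91.6) and 81.8 to 111 (median 95.6). Its libraries overlapped between groups in all 9 comparisons. Its log2FC at EPS 3h against Rest was -0.17 ± 0.085 in control (FDR = 0.0831, 0.0181 with the replicate number as a block) and -0.18 ± 0.085 in *Tug1* KD (FDR = 0.0809). Scaling by library size alone shifts the median of all genes at EPS 3h by -0.17 in control and -0.16 in *Tug1* KD. With it *Trp53* was called lower in both (FDR = 0.000869 and 0.000879), and at EPS 0h in control (FDR = 0.0389). *Mdm2* (chr10:117524780-117546730, − strand) makes the ligase that marks p53 for breakdown and is itself a p53 target. Its level was 184 to 281 (median 244) CPM in Rest control, 197 to 312 (median 254) at EPS 0h and 267 to 404 (median 373) at EPS 3h. In *Tug1* KD it was 237 to 327 (median 278), 238 to 314 (median 278) and 285 to 402 (median 353). The ranges at EPS 3h lay higher than those at Rest but overlapped them in both arms. *Mdm2* rose at EPS 3h against Rest in control (log2FC 0.61 ± 0.12, FDR = 6.27e-05) and in *Tug1* KD (log2FC 0.33 ± 0.12, FDR = 0.0197). It also rose from EPS 0h to EPS 3h (log2FC 0.50 ± 0.12, FDR = 0.00303 in control and log2FC 0.35 ± 0.12, FDR = 0.0406 in *Tug1* KD). With library size scaling the log2FC in *Tug1* KD was 0.16 (FDR = 0.228) and 0.27 (FDR = 0.107), no longer called. *Tug1* KD against control gave log2FC 0.27 ± 0.12, FDR = 0.175 at Rest, and *Mdm2* was called at none of the 3 states. At EPS 0h and EPS 3h that log2FC was 0.14 ± 0.12 and -0.0082 ± 0.12 for *Mdm2* and 0.13 ± 0.085 and 0.092 ± 0.085 for *Trp53*, which had 0.093 ± 0.085 at Rest.

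*Mdm4*, a relative of *Mdm2* that binds and inhibits p53, rose in *Tug1* KD at EPS 0h (log2FC 0.42 ± 0.14, FDR = 0.0117) and EPS 3h (log2FC 0.43 ± 0.14, FDR = 0.00872). Its *Tug1* KD libraries held 57.5 to 90.2 (median 72.04) CPM at Rest, 77.1 to 122 (median 98.1) at EPS 0h and 82.2 to 128 (median 96.8) at EPS 3h. In control myotubes it stood at 54.03 to 102 (median 88.1) at Rest, 81.3 to 107 (median 91.3) at EPS 0h and 77.7 to 113 (median 95.8) at EPS 3h, and was not called. With library size scaling the rise at EPS 3h was not called (FDR = 0.105). *Ppm1d* (chr11:85202017-85239268, + strand) encodes the phosphatase Wip1, which removes damage-induced phosphates from p53 and its kinases. Its levels were 15.4 to 19.7 (median 17.7) CPM in Rest control and 12.8 to 17.2 (median 15.3) in Rest *Tug1* KD, which overlap. At EPS 0h they were 15.3 to 17.4 (median 16.1) in control and 8.88 to 11.5 (median 10.7) in *Tug1* KD. The EPS 3h values were 12.2 to 14.4 (median 13.2) and 7.75 to 12.2 (median 9.39). Every *Tug1* KD library lay below every control library at both times. *Ppm1d* was thus lower in *Tug1* KD at EPS 0h (log2FC -0.62 ± 0.098, FDR = 1.88e-05) and at EPS 3h (log2FC -0.49 ± 0.099, FDR = 0.000744). Within *Tug1* KD it fell at EPS 0h (log2FC -0.51 ± 0.098, FDR = 6.65e-05) and EPS 3h (log2FC -0.66 ± 0.098, FDR = 7.26e-07) against Rest. In control it fell at EPS 3h against Rest (log2FC -0.41 ± 0.097, FDR = 0.000593) and against EPS 0h (log2FC -0.29 ± 0.097, FDR = 0.038).

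**Figure D2:**
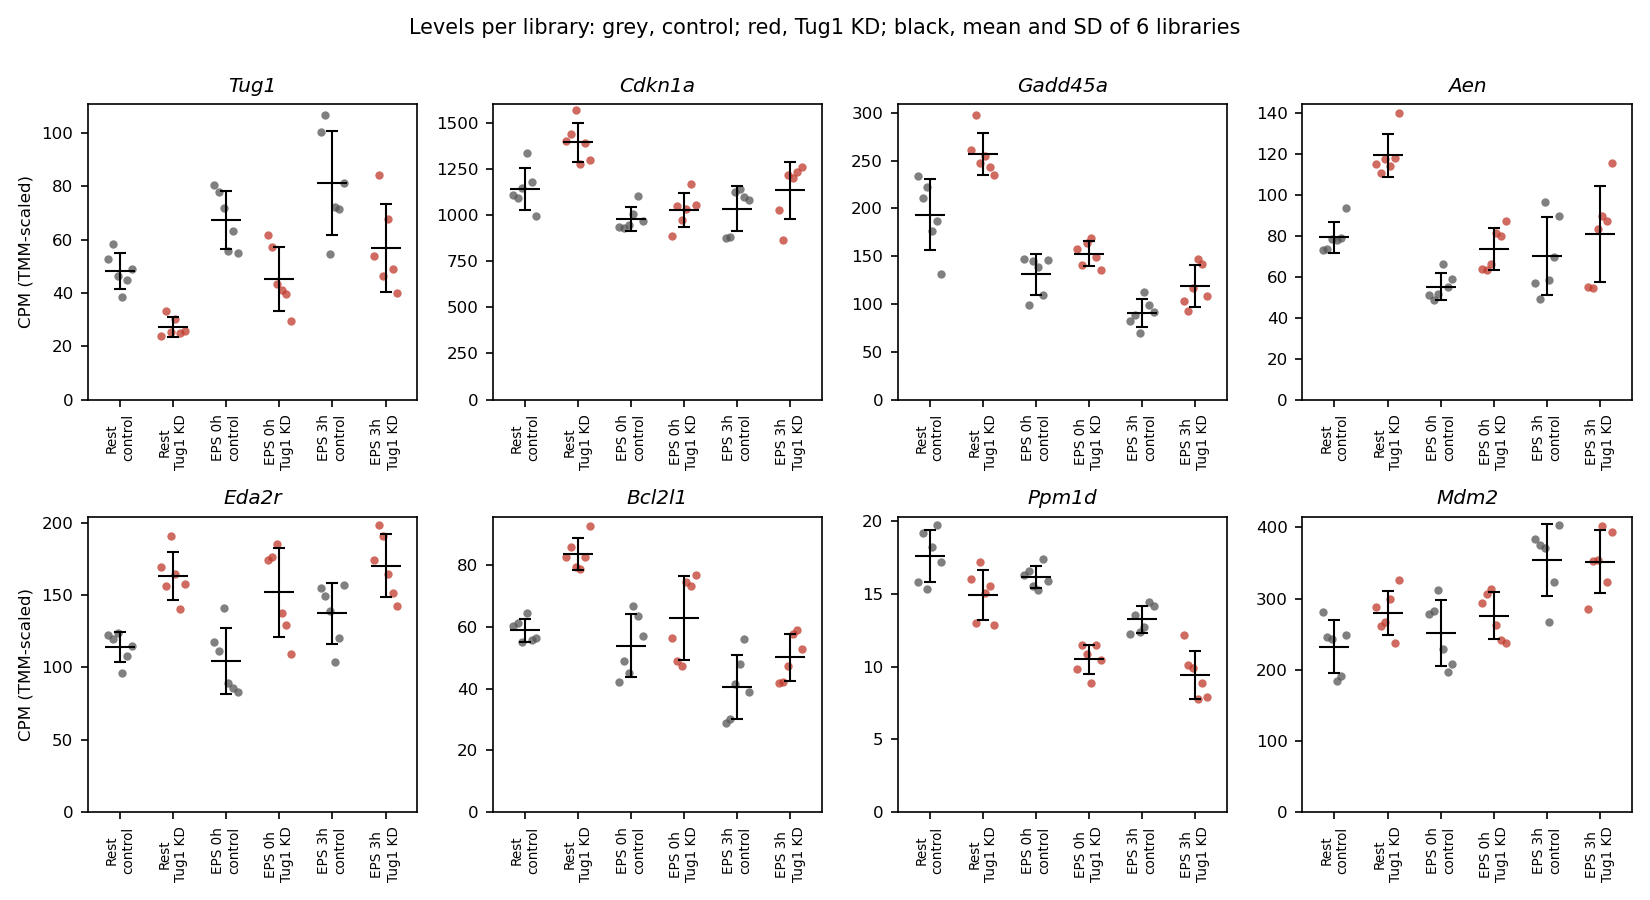
Levels of *Tug1* and 7 members in each library (points, CPM with TMM scaling, linear axis from 0) in the 6 groups, control in grey and *Tug1* KD in red, with the mean and SD of 6 libraries in black. At Rest every *Tug1* KD library of *Gadd45a*, *Aen*, *Eda2r* and *Bcl2l1* lies above every control library, while *Cdkn1a* overlaps.

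The 8 genes of cell cycle arrest and the stress kinases held 2 of the 5 members that were higher with *Tug1* KD at Rest, where 5.54% of all genes were higher. Their EPS responses ran both ways. *Cdkn1a* (chr17:29309936-29319701, + strand) was the second most abundant member per length, at 189.1 ± 18.8 CPM per kb of exon in Rest control. It stood at 997 to 1337 (median 1128) CPM in Rest control and 1275 to 1567 (median 1394) in Rest *Tug1* KD, and the highest control library reached into the *Tug1* KD range. *Cdkn1a* was 1.22-fold higher in *Tug1* KD at Rest (log2FC 0.29 ± 0.091, FDR = 0.0381). That call was lost when any of 9 of the 12 Rest libraries was left out (highest FDR 0.108) and without the filter on low counts (FDR = 0.121). After EPS the levels were 932 to 1102 (median 956) and 887 to 1169 (median 1042) at EPS 0h, control first, and 876 to 1143 (median 1089) and 863 to 1260.4 (median 1209) at EPS 3h. The log2FC between arms was 0.067 ± 0.091 (FDR = 0.698) and 0.13 ± 0.091 (FDR = 0.408). Against Rest *Cdkn1a* fell in *Tug1* KD at EPS 0h (log2FC -0.44 ± 0.092, FDR = 0.000181) and EPS 3h (log2FC -0.30 ± 0.091, FDR = 0.00676), with every stimulated library below every Rest library at both times. In control the log2FC was -0.22 ± 0.091 at EPS 0h (FDR = 0.0538, 0.0215 with the replicate block) and -0.14 ± 0.091 at EPS 3h (FDR = 0.19, 0.00319 with library size scaling, which also called it at EPS 0h, FDR = 0.00783).

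*Gadd45a* (chr6:67012070-67014441, − strand), *Gadd45b* and *Gadd45g* make small stress proteins that bind PCNA and a MAP kinase kinase kinase, and the 3 genes moved apart after EPS. *Gadd45a* stood at 131 to 234 (median 199) CPM in Rest control and 235 to 298 (median 251) in Rest *Tug1* KD, with no overlap. It was higher in *Tug1* KD at Rest (log2FC 0.41 ± 0.13, FDR = 0.0319) and at EPS 3h (log2FC 0.39 ± 0.13, FDR = 0.0417), and had log2FC 0.22 ± 0.13, FDR = 0.275 at EPS 0h. Leaving out any of 5 of the 12 Rest libraries ended the call at Rest (highest FDR 0.108), and library size scaling gave FDR = 0.0565 there and 0.0692 at EPS 3h. The control libraries stepped down to 98.97 to 147 (median 142) at EPS 0h and 69.8 to 112 (median 90.2) at EPS 3h, and the *Tug1* KD libraries to 135 to 169 (median 153) and 92.7 to 147 (median 113). At EPS 0h *Gadd45a* had log2FC -0.56 ± 0.13 in control (FDR = 0.000565) and -0.75 ± 0.13 in *Tug1* KD (FDR = 1.02e-05). The fall at EPS 3h was -1.09 ± 0.13 in control (FDR = 6.82e-09) and -1.11 ± 0.13 in *Tug1* KD (FDR = 3.9e-09), without overlap in either. Of the exon bases of *Gadd45a*, 55.8% are shared with exons of E230016M11Rik on the opposite strand. The study made stranded libraries, but the strand setting of the counting is not stated. Whether these counts hold reads of the opposite strand is therefore not known. *Btg2* shares 14.3% of its exon bases in the same way with Gm31974, and *Cdkn1a* 8.34% with *Dino*. *Gadd45b* fell at EPS 3h against Rest in control (log2FC -0.54 ± 0.12, FDR = 0.000305) and in *Tug1* KD (log2FC -0.74 ± 0.12, FDR = 3.75e-06). It stood at 147 to 221 (median 161) CPM in Rest control, 133 to 200.2 (median 167) at EPS 0h and 86.7 to 136 (median 120.5) at EPS 3h. Its *Tug1* KD ranges were 154 to 215 in Rest *Tug1* KD, 127 to 181 in EPS 0h *Tug1* KD and 93.6 to 129 in EPS 3h *Tug1* KD. *Gadd45g*, the most abundant member per length at 357.1 ± 43.2 CPM per kb in Rest control, went the other way. It stood at 368 to 489.6 (median 406) CPM in Rest control, 441 to 648 (median 558) at EPS 0h and 562 to 885 (median 699.9) at EPS 3h. With *Tug1* KD it held 403 to 568 in Rest *Tug1* KD, 420.0 to 686 in EPS 0h *Tug1* KD and 453 to 936 in EPS 3h *Tug1* KD. It rose in control at EPS 0h (log2FC 0.38 ± 0.14, FDR = 0.0328, but FDR = 0.0748 with library size scaling). At EPS 3h it rose in control (log2FC 0.76 ± 0.14, FDR = 3.46e-05) and in *Tug1* KD (log2FC 0.55 ± 0.14, FDR = 0.0015).

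*Btg2* (chr1:134002908-134015033, − strand), an antiproliferative protein of mRNA deadenylation, fell at EPS 0h and rose again by EPS 3h, where it was not called against Rest. Its levels were 43.7 to 67.3 (median 58.1) CPM in Rest control, 17.2 to 35.7 (median 25.7) at EPS 0h and 33.4 to 73.9 (median 48.5) at EPS 3h. The *Tug1* KD libraries held 53.5 to 73.7 (median 65.7), 22.1 to 31.8 (median 26.7) and 34.9 to 80.01 (median 62.4). Every EPS 0h library lay below every Rest library in both arms. The fall was -1.11 ± 0.18 in control (FDR = 4.5e-06) and -1.26 ± 0.18 in *Tug1* KD (FDR = 4.03e-07). The rise from EPS 0h to EPS 3h was 1.03 ± 0.18 (FDR = 4.04e-05) and 1.17 ± 0.18 (FDR = 5.18e-06). The polo-like kinase gene *Plk2* had the same shape at a higher level, with 342 to 487 (median 404) CPM in Rest control, 222 to 404 (median 297) at EPS 0h and 362 to 712 (median 468) at EPS 3h. The other groups had 346 to 497 in Rest *Tug1* KD, 177 to 315 in EPS 0h *Tug1* KD and 269 to 459.5 in EPS 3h *Tug1* KD. It fell at EPS 0h in control (log2FC -0.44 ± 0.16, FDR = 0.0294) and *Tug1* KD (log2FC -0.62 ± 0.16, FDR = 0.00203) and rose during recovery (log2FC 0.75 ± 0.16, FDR = 0.000983 and log2FC 0.58 ± 0.16, FDR = 0.0105). *Plk3*, its paralogue, was called in no comparison. It stood at 36.1 to 57.6 (median 43.9) CPM in Rest control and 26.9 to 43.5 (median 32.3) in Rest *Tug1* KD, and its log2FC with *Tug1* KD was -0.43 ± 0.17 at EPS 0h (FDR = 0.0914, 0.00168 with the block). After EPS *Plk3* stood at 29.98 to 51.9 in EPS 0h control, 21.98 to 42.1 in EPS 0h *Tug1* KD, 34.1 to 60.3 in EPS 3h control and 31.6 to 57.2 in EPS 3h *Tug1* KD. *Ccng1*, which makes cyclin G1, was at 141 to 200.1 (median 166) CPM in Rest control and 150.3 to 242 (median 221) at EPS 3h in control, where it rose (log2FC 0.35 ± 0.12, FDR = 0.0137, but FDR = 0.181 with library size scaling). In *Tug1* KD it stood at 179 to 238 (median 205) at Rest and 162 to 225 (median 190.5) at EPS 3h (log2FC -0.088 ± 0.12, FDR = 0.557). *Ccng1* at EPS 0h had 149 to 199.7 in EPS 0h control and 137 to 207 in EPS 0h *Tug1* KD.

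**Figure D3:**
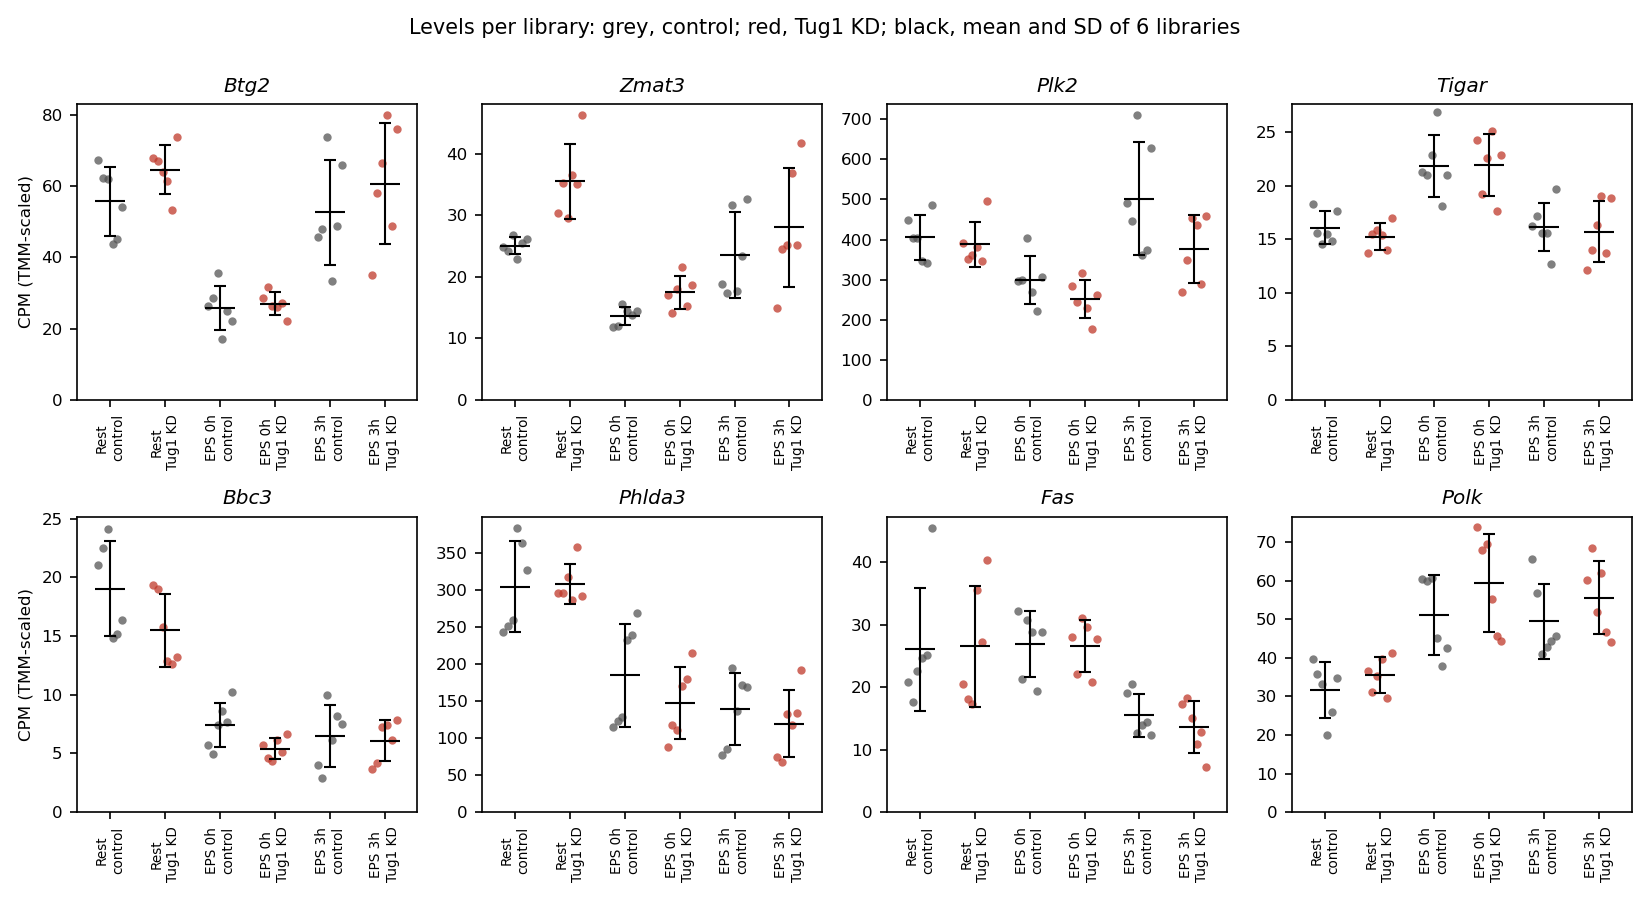
Levels of 8 members in each library (points, CPM with TMM scaling, linear axis from 0) in the 6 groups, control in grey and *Tug1* KD in red, with the mean and SD of 6 libraries in black. *Btg2*, *Zmat3* and *Plk2* dip at EPS 0h, *Tigar* peaks there, *Bbc3* and *Phlda3* stay low at EPS 3h, *Fas* is lower at EPS 3h, and *Polk* is higher at both times.

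Of the 15 members of apoptosis and death receptor signalling, 3 were higher with *Tug1* KD at Rest and 0 lower (5.54% and 4.47% of all genes). After EPS 6 fell in control at EPS 0h and 5 at EPS 3h (18.4% and 25.9% of all genes). In the same 2 comparisons 0 and 1 rose (20.5% and 26.1% of all genes). *Aen* (chr7:78545602-78560957, + strand), an apoptosis-enhancing nuclease, stood at 73.2 to 93.4 (median 78.1) CPM in Rest control and 111 to 139.7 (median 116) in Rest *Tug1* KD, and no libraries overlapped. It was 1.51-fold higher in *Tug1* KD (log2FC 0.59 ± 0.15, FDR = 0.00632), the largest called rise among members at Rest. At EPS 0h the levels were 48.8 to 66.3 (median 53.1) in control and 63.4 to 87.2 (median 73.01) in *Tug1* KD (log2FC 0.41 ± 0.15, FDR = 0.0562, FDR = 0.00465 with the replicate block). By EPS 3h they were 48.9 to 96.6 (median 64.2) and 54.5 to 116 (median 85.3) (log2FC 0.21 ± 0.15, FDR = 0.44). *Aen* fell at EPS 0h in control (log2FC -0.52 ± 0.15, FDR = 0.00553) and in *Tug1* KD (log2FC -0.69 ± 0.15, FDR = 0.000251), and at EPS 3h in *Tug1* KD (log2FC -0.56 ± 0.15, FDR = 0.0019). *Eda2r* (chrX:96320270-96420847, − strand), a receptor for ectodysplasin A2 on the X chromosome, stood at 96.01 to 124 (median 117) CPM in Rest control and 141 to 191 (median 161) in Rest *Tug1* KD, again without overlap (log2FC 0.52 ± 0.13, FDR = 0.00597). At EPS 0h it was 83.2 to 141 (median 100.05) and 109 to 185 (median 156) (log2FC 0.54 ± 0.13, FDR = 0.00322). Its EPS 3h values were 103.9 to 157 (median 144) and 143 to 199 (median 169) (log2FC 0.31 ± 0.13, FDR = 0.121, FDR = 0.0132 with the block). *Bcl2l1* (chr2:152622582-152673655, − strand) makes Bcl-xL, which blocks rather than drives apoptosis. Its levels were 55.2 to 64.7 (median 58.4) CPM in Rest control and 78.9 to 92.7 (median 82.8) in Rest *Tug1* KD, without overlap (log2FC 0.51 ± 0.14, FDR = 0.0128). At EPS 3h they were 29.1 to 56.1 (median 40.3) and 41.8 to 59.1 (median 50.2), a fall against Rest of -0.53 ± 0.14 in control (FDR = 0.00156) and -0.74 ± 0.14 in *Tug1* KD (FDR = 3.28e-05). At EPS 0h it stood at 42.1 to 66.9 in EPS 0h control and 47.4 to 76.9 in EPS 0h *Tug1* KD, and fell against Rest in *Tug1* KD (log2FC -0.41 ± 0.14, FDR = 0.015). The 3 genes kept their calls at Rest whichever of the 12 Rest libraries was left out, with a highest FDR of 0.0203 for *Aen*, 0.0215 for *Eda2r* and 0.0319 for *Bcl2l1*.

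The BH3-only genes *Bbc3* (Puma) and *Pmaip1* (Noxa), whose proteins release the mitochondrial step of apoptosis, moved in opposite directions after EPS. *Bbc3* (chr7:16042318-16052130, + strand) stood at 14.8 to 24.1 (median 18.7) CPM in Rest control, 4.98 to 10.2 (median 7.54) at EPS 0h and 2.92 to 9.97 (median 6.83) at EPS 3h. With *Tug1* KD the same states gave 12.6 to 19.4 (median 14.5), 4.32 to 6.68 (median 5.405) and 3.71 to 7.86 (median 6.69). No stimulated library reached the Rest range of its arm. Its fall in control was -1.35 ± 0.22 at EPS 0h (FDR = 6.1e-06) and -1.55 ± 0.22 at EPS 3h (FDR = 2.86e-07). In *Tug1* KD it was -1.51 ± 0.22 (FDR = 1e-06) and -1.34 ± 0.22 (FDR = 3.76e-06). These were the largest falls of any member against Rest, except at EPS 3h in *Tug1* KD, where the estimate of *Phlda3* was larger. The fall of *Bbc3* was larger in replicates 1 to 3. The mean log2 level of replicates 4 to 6 minus that of replicates 1 to 3 was -0.54 in Rest control and -0.47 in Rest *Tug1* KD. After EPS this difference was 0.55 and 0.29 at EPS 0h, control first, and 0.55 in both arms at EPS 3h. *Pmaip1* rose at EPS 3h in control (log2FC 0.44 ± 0.13, FDR = 0.00579) and in *Tug1* KD (log2FC 0.40 ± 0.13, FDR = 0.0112). It stood at 69.2 to 119.5 (median 88.4) CPM in Rest control and 88.4 to 148 (median 122) in EPS 3h control. The remaining ranges were 83.5 to 111 in Rest *Tug1* KD, 94.6 to 137 in EPS 0h control, 87.4 to 146 in EPS 0h *Tug1* KD and 97.3 to 149 in EPS 3h *Tug1* KD. With library size scaling neither rise was called (FDR = 0.0937 and 0.136). *Bax*, the pore-forming effector, rose in *Tug1* KD at EPS 3h (log2FC 0.37 ± 0.14, FDR = 0.0212), with 54.3 to 80.2 (median 63.3) CPM at Rest and 60.1 to 113 (median 81.7) at EPS 3h. The 2 replicate sets gave 0.014 (numbers 1 to 3) and 0.73 (numbers 4 to 6), and library size scaling ended the call (FDR = 0.196). In control *Bax* stood at 43.8 to 72.9 (median 62.05) and 61.3 to 98.1 (median 73.04) (log2FC 0.31 ± 0.14, FDR = 0.0556). At EPS 0h it had 53.3 to 68.8 in EPS 0h control and 49.6 to 70.9 in EPS 0h *Tug1* KD, and 10.3% of its exon bases are shared with Gm45808 on the same strand. *Apaf1*, the scaffold that activates caspase-9, was called nowhere and stood at 8.95 to 12.002 (median 9.40) CPM in Rest control and 8.47 to 14.3 (median 9.75) in EPS 3h *Tug1* KD. Elsewhere it had 8.97 to 12.9 in Rest *Tug1* KD, 6.40 to 11.1 in EPS 0h control, 8.53 to 11.1 in EPS 0h *Tug1* KD and 7.93 to 11.5 in EPS 3h control. *Pidd1*, of the complex that activates caspase-2, was also called nowhere, at 4.63 to 7.04 (median 6.24) CPM in Rest control and 5.37 to 9.35 (median 6.82) in EPS 3h control. Its other ranges were 4.08 to 6.33 in Rest *Tug1* KD, 4.66 to 7.57 in EPS 0h control, 4.95 to 8.07 in EPS 0h *Tug1* KD and 3.97 to 7.79 in EPS 3h *Tug1* KD. *Perp*, a membrane protein of desmosomes and the least abundant member in CPM, was called nowhere, at 1.10 to 4.54 (median 2.81) CPM in Rest control and 1.07 to 3.06 (median 2.09) in Rest *Tug1* KD. Its log2FC with *Tug1* KD was -0.65 ± 0.36 at EPS 0h (FDR = 0.256, 0.0235 with the block), and the stimulated groups held 1.41 to 3.66 in EPS 0h control, 0.638 to 2.41 in EPS 0h *Tug1* KD, 0.680 to 3.35 in EPS 3h control and 0.802 to 2.45 in EPS 3h *Tug1* KD.

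The death receptor genes fell with different timing. *Fas* (chr19:34268001-34305173, + strand) stood at 17.6 to 45.4 (median 23.6) CPM in Rest control, 19.4 to 32.2 (median 28.8) at EPS 0h and 12.3 to 20.5 (median 14.2) at EPS 3h. The corresponding *Tug1* KD values were 17.3 to 40.3 (median 23.9), 20.8 to 31.03 (median 27.9) and 7.30 to 18.3 (median 13.9). It was not called at EPS 0h (log2FC 0.045 ± 0.22 in control and 0.0015 ± 0.22 in *Tug1* KD). At EPS 3h it fell against Rest (log2FC -0.75 ± 0.22, FDR = 0.00427 in control and log2FC -0.96 ± 0.22, FDR = 0.000402 in *Tug1* KD), and the groups overlapped. The estimates of replicates 1 to 3 and 4 to 6, in that order, were -0.21 and -1.23 in control. In *Tug1* KD they were -0.12 and -1.73. *Tnfrsf10b*, the mouse TRAIL receptor, fell at EPS 0h in control (log2FC -0.51 ± 0.12, FDR = 0.00109) and *Tug1* KD (log2FC -0.61 ± 0.12, FDR = 0.000125). At EPS 3h it was still lower in both (log2FC -0.46 ± 0.12, FDR = 0.00182 and log2FC -0.59 ± 0.12, FDR = 0.000121). It stood at 82.6 to 116 (median 101) CPM in Rest control, 60.5 to 81.5 (median 73.4) in EPS 3h control and 46.8 to 65.5 (median 55.1) in EPS 3h *Tug1* KD. The remaining groups had 76.2 to 113 in Rest *Tug1* KD, 50.7 to 87.96 in EPS 0h control and 41.4 to 65.1 in EPS 0h *Tug1* KD. Between arms it was lower in *Tug1* KD at EPS 3h (log2FC -0.36 ± 0.12, FDR = 0.0493, a call lost without the filter, FDR = 0.0739). At EPS 0h the replicate block brought its difference between arms of -0.33 ± 0.12 from FDR = 0.0677 to 0.00435.

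*Phlda3*, *Zmat3*, *Trp53inp1* and *Ei24* act elsewhere in the cell death pathway. *Phlda3* (chr1:135693809-135697686, + strand), an inhibitor of Akt, was the third most abundant member per length (117.7 ± 23.7 CPM per kb). It stood at 243 to 383 (median 293) CPM in Rest control, 115 to 268 (median 181) at EPS 0h and 77.2 to 194 (median 153) at EPS 3h. In *Tug1* KD it was 286 to 358 (median 295), 87.99 to 216 (median 144) and 67.2 to 192 (median 125). At EPS 0h it fell in control (log2FC -0.72 ± 0.25, FDR = 0.019) and *Tug1* KD (log2FC -1.06 ± 0.25, FDR = 0.000702). The EPS 3h libraries lay below all Rest libraries in both arms, and the fall was -1.13 ± 0.25 (FDR = 0.00025) in control and -1.36 ± 0.25 (FDR = 2.24e-05) in *Tug1* KD. *Zmat3* (chr3:32388941-32420163, − strand) encodes a zinc finger protein that binds RNA, and its start site region held the one element without a mismatch. It stood at 22.8 to 26.7 (median 25.1) CPM in Rest control, 11.8 to 15.5 (median 14.1) at EPS 0h and 17.4 to 32.7 (median 21.1) at EPS 3h. Under *Tug1* KD the 3 states gave 29.4 to 46.3 (median 35.1), 14.1 to 21.5 (median 17.5) and 14.9 to 41.7 (median 25.2). It fell at EPS 0h in control (log2FC -0.87 ± 0.17, FDR = 0.000122) and *Tug1* KD (log2FC -1.02 ± 0.17, FDR = 8.62e-06), with all EPS 0h libraries below all Rest libraries. It rose during recovery (log2FC 0.79 ± 0.17, FDR = 0.00109 and log2FC 0.69 ± 0.17, FDR = 0.00416). At Rest its log2FC with *Tug1* KD was 0.50 ± 0.17, just outside the threshold (FDR = 0.0517), although no library of the arms overlapped. *Trp53inp1*, a stress protein of apoptosis and autophagy, was lower in *Tug1* KD at EPS 0h (log2FC -0.54 ± 0.16, FDR = 0.0193), at 15.00 to 33.5 (median 27.3) CPM against 30.4 to 44.9 (median 39.5) in control. It also fell at EPS 0h within *Tug1* KD (log2FC -0.47 ± 0.16, FDR = 0.0185), where the first 3 replicate numbers gave -0.018 and the last 3 gave -0.95. The other groups stood at 31.6 to 44.9 in Rest control, 29.6 to 48.2 in Rest *Tug1* KD, 30.2 to 56.7 in EPS 3h control and 30.1 to 45.1 in EPS 3h *Tug1* KD. *Ei24*, a membrane protein of the endoplasmic reticulum, had small differences with small errors. It was lower in *Tug1* KD at EPS 0h (log2FC -0.18 ± 0.063, FDR = 0.0466) and EPS 3h (log2FC -0.21 ± 0.063, FDR = 0.0218). At EPS 0h control held 63.5 to 75.1 (median 71.1) and *Tug1* KD 57.8 to 65.9 (median 62.2) CPM. Both calls were lost without the filter on low counts (FDR = 0.387 and 0.259). At EPS 0h *Ei24* also fell against Rest in control (log2FC -0.16 ± 0.063, FDR = 0.0488) and in *Tug1* KD (log2FC -0.24 ± 0.063, FDR = 0.00211), and at EPS 3h in *Tug1* KD (log2FC -0.24 ± 0.063, FDR = 0.00181). Its other groups held 73.9 to 85.9 in Rest control, 69.8 to 80.6 in Rest *Tug1* KD, 65.4 to 78.9 in EPS 3h control and 54.3 to 66.3 in EPS 3h *Tug1* KD.

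In the DNA repair group *Xpc* fell and *Polk* rose after EPS. In the main fit 0 of its 5 members were called between *Tug1* KD and control at any state. Among all genes the share called in a single direction and state ran from 4.47% to 8.25%. A count of 0 among 5 genes therefore does not set this group apart. The replicate block called 1 of them, *Ercc5*, lower in *Tug1* KD at EPS 0h, as given further below. *Xpc* (chr6:91466287-91492898, − strand), which finds helix-distorting damage for nucleotide excision repair, stood at 28.02 to 32.2 (median 29.7) CPM in Rest control, 19.1 to 23.2 (median 20.6) at EPS 0h and 16.5 to 21.2 (median 19.9) at EPS 3h. In *Tug1* KD it was 28.3 to 34.9 (median 30.6), 16.6 to 27.3 (median 18.7) and 17.01 to 23.1 (median 19.95), and no stimulated library reached the Rest range of its arm. The fall was -0.53 ± 0.10 (FDR = 6.62e-05) and -0.64 ± 0.10 (FDR = 1.86e-06) in control and -0.60 ± 0.10 (FDR = 8.65e-06) and -0.64 ± 0.10 (FDR = 1.88e-06) in *Tug1* KD. *Ddb2*, its partner in damage recognition and the least abundant member per length (0.783 ± 0.143 CPM per kb), fell at EPS 3h in control (log2FC -0.55 ± 0.19, FDR = 0.0159). It stood at 2.53 to 4.37 (median 3.44) CPM in Rest control and 1.71 to 3.13 (median 2.14) in EPS 3h control. In *Tug1* KD it stood at 1.96 to 3.76 (median 2.55) and 1.74 to 3.16 (median 2.00) (log2FC -0.26 ± 0.20, FDR = 0.263), and 37% of its exon bases are shared with *Acp2* on the opposite strand. At EPS 0h it had 2.18 to 3.21 in EPS 0h control and 1.71 to 3.60 in EPS 0h *Tug1* KD. *Ercc5*, the endonuclease of the same pathway, fell in *Tug1* KD at EPS 0h (log2FC -0.23 ± 0.078, FDR = 0.0161) and EPS 3h (log2FC -0.30 ± 0.078, FDR = 0.00151). It held 32.2 to 36.96 (median 34.98) CPM in Rest *Tug1* KD, 27.96 to 32.1 (median 29.2) at EPS 0h and 24.7 to 32.3 (median 27.97) at EPS 3h. Its control groups had 27.8 to 38.2 in Rest control, 29.7 to 40.3 in EPS 0h control and 29.2 to 35.03 in EPS 3h control. *Polk* (chr13:96617196-96679087, − strand), a translesion DNA polymerase, stood at 20.1 to 39.6 (median 34.1) CPM in Rest control, 37.97 to 60.6 (median 52.5) at EPS 0h and 41.1 to 65.7 (median 45.1) at EPS 3h. Its *Tug1* KD values were 29.6 to 41.2 (median 35.99), 44.3 to 73.96 (median 61.5) and 44.1 to 68.4 (median 56.1). *Polk* rose at EPS 0h in control (log2FC 0.69 ± 0.16, FDR = 0.000641) and *Tug1* KD (log2FC 0.74 ± 0.16, FDR = 0.000248). At EPS 3h all stimulated libraries lay above all Rest libraries in both arms (log2FC 0.65 ± 0.16, FDR = 0.000804 in control and log2FC 0.64 ± 0.16, FDR = 0.000825 in *Tug1* KD). *Rrm2b*, the p53-inducible subunit of ribonucleotide reductase, was called nowhere, at 18.1 to 31.9 (median 25.8) CPM in Rest control and 28.1 to 35.8 (median 30.03) in Rest *Tug1* KD. After EPS its ranges were 19.9 to 36.5 in EPS 0h control, 21.00 to 42.1 in EPS 0h *Tug1* KD, 16.2 to 34.7 in EPS 3h control and 20.3 to 33.4 in EPS 3h *Tug1* KD.

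*Tigar* (chr6:127062079-127086545, − strand), which lowers fructose 2,6-bisphosphate and so slows glycolysis, was the one member that rose at EPS 0h and fell during recovery in both arms. It stood at 14.6 to 18.3 (median 15.5) CPM in Rest control, 18.1 to 26.9 (median 21.2) at EPS 0h and 12.7 to 19.7 (median 15.9) at EPS 3h. *Tug1* KD gave 13.8 to 17.03 (median 15.4), 17.6 to 25.1 (median 22.7) and 12.2 to 19.04 (median 15.2). The rise at EPS 0h was 0.44 ± 0.11 in control (FDR = 0.00177) and 0.52 ± 0.11 in *Tug1* KD (FDR = 0.000252). The fall from EPS 0h to EPS 3h was -0.44 ± 0.11 (FDR = 0.00512) and -0.48 ± 0.11 (FDR = 0.00218). Between the arms it was not called at any state.

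The recovery from EPS 0h to EPS 3h held further calls. *Fas* fell in control (log2FC -0.80 ± 0.22, FDR = 0.00931) and in *Tug1* KD (log2FC -0.96 ± 0.22, FDR = 0.00183). *Gadd45a* (log2FC -0.53 ± 0.13, FDR = 0.0028 and log2FC -0.36 ± 0.13, FDR = 0.0463) and *Gadd45b* (log2FC -0.53 ± 0.12, FDR = 0.00185 and log2FC -0.51 ± 0.12, FDR = 0.00247) also fell in both arms, control first. In control *Eda2r* rose (log2FC 0.39 ± 0.13, FDR = 0.0305) and *Bcl2l1* fell (log2FC -0.41 ± 0.14, FDR = 0.0393), and in *Tug1* KD *Bax* rose (log2FC 0.43 ± 0.14, FDR = 0.0244). With library size scaling the rises of *Eda2r* and *Bax* were not called (FDR = 0.1 and 0.0646).

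The next question was whether *Tug1* KD changed the response to EPS. The arms share no library here. At EPS 0h 10 members fell in both arms, 100% of those in control and 66.7% of those in *Tug1* KD, and *Polk* and *Tigar* rose in both. The 5 that were called lower in *Tug1* KD alone were *Bcl2l1*, *Cdkn1a*, *Ercc5*, *Ppm1d* and *Trp53inp1*. At EPS 3h 9 fell in both (90% and 69.2%) and *Mdm2*, *Gadd45g*, *Pmaip1* and *Polk* rose in both (80% and 66.7%). These overlaps were not counted over all genes, so whether they are particular to the members cannot be said. A call in 1 arm does not show a difference between arms. The interaction term called 0 of 33 members at EPS 0h and 0 at EPS 3h, where 0% of all genes were called in either direction at EPS 0h, and 0.00715% higher and 0% lower at EPS 3h. At an unadjusted p under 0.05 edgeR had 2 members at EPS 0h and 1 at EPS 3h, DESeq2 3 and 1, and limma-voom 2 and 1, with 0 called by either. The members with an unadjusted p under 0.05 by edgeR had interaction estimates, *Tug1* KD response minus control response, of -0.39 ± 0.14 for *Ppm1d* and -0.52 ± 0.23 for *Trp53inp1* at EPS 0h and -0.43 ± 0.17 for *Ccng1* at EPS 3h. The estimate was below 0 for 23 of 33 members at EPS 0h and 25 at EPS 3h, with medians of -0.13 and -0.14 against 0.0098 and 0.00018 over all genes, and both times use the same Rest libraries. At EPS 0h the negative median was seen in replicates 4 to 6 alone (-0.16, against 0.0023 in replicates 1 to 3). At EPS 3h the sets had -0.17 and -0.085 in the same order. For the members that are always named it was 0.036 ± 0.12 and -0.0012 ± 0.12 for *Trp53*, -0.13 ± 0.17 and -0.28 ± 0.17 for *Mdm2*, and -0.22 ± 0.13 and -0.15 ± 0.13 for *Cdkn1a*, EPS 0h first.

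**Figure D4:**
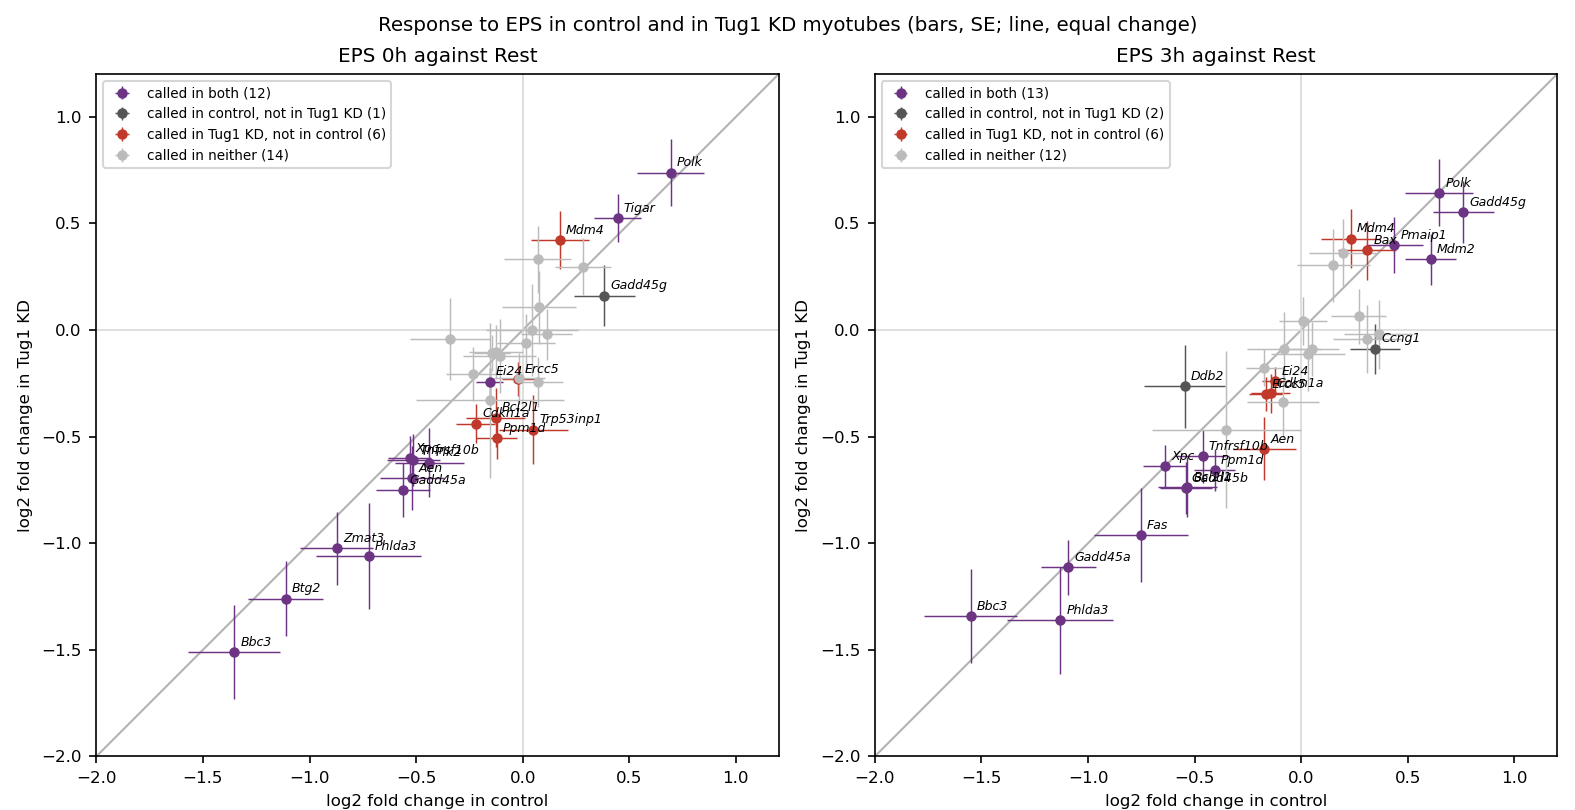
Log2 fold change of each member at EPS 0h (left) and EPS 3h (right) against Rest, control on the horizontal and *Tug1* KD on the vertical axis, with bars for the standard error, the grey diagonal for equal change and colour for the arm in which a gene was called. *Bbc3* lies at the lower left and *Polk* at the upper right of both panels, and 0 members passed the test of the difference.

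Over the 6 group means on the log2 scale, the members most like *Cdkn1a* were *Aen* (Pearson's r = 0.967), *Zmat3* (0.892) and *Trp53* (0.814), a description over 6 points that come from the same 36 libraries. In these groups *Cdkn1a* and *Aen* were highest in Rest *Tug1* KD and lowest in EPS 0h control.

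Scaling mattered for the split of calls. By library size alone 3 members rose and 15 fell at EPS 3h in control, and 2 rose and 15 fell in *Tug1* KD, against 5 and 10 and 6 and 13 with TMM. Over all genes 2675 rose and 5526 fell at EPS 3h in control (3651 and 3626 with TMM), and 2802 and 5671 in *Tug1* KD (3668 and 3625). At EPS 0h the counts were 2324 and 3479 in control (2872 and 2569) and 2843 and 4160 in *Tug1* KD (3421 and 2967). For recovery they were 1031 and 1752 in control (1354 and 963) and 1023 and 1737 in *Tug1* KD (1202 and 998), and for *Tug1* KD at EPS 0h 986 and 1118 (1155 and 850). Among members library size scaling gave at EPS 0h 2 and 12 in control and 3 and 17 in *Tug1* KD, during recovery 4 and 7 in control and 3 and 5 in *Tug1* KD, and for *Tug1* KD against control at EPS 0h 1 and 5. Same-numbered libraries deviated together in 6 of the 9 comparisons. Their deviations keep the difference between the replicate sets, so pairing by number and a shared set cannot be told apart. In these 6 comparisons the replicate block moved at least 1 of the 2 counts by more than 1.5 times in 4. It gave 2 higher and 7 lower for *Tug1* KD at EPS 0h (1838 and 1568 over all genes), adding *Aen*, *Plk3*, *Tnfrsf10b*, *Perp* and *Ercc5* (FDR = 0.0412). It gave 3 higher and 4 lower at EPS 3h (1514 and 1364 over all genes), adding *Eda2r*, *Bcl2l1* (FDR = 0.0325) and *Plk2* (FDR = 0.00957). Within *Tug1* KD it gave 5 higher and 16 lower at EPS 0h (3907 and 4055 over all genes), adding *Pmaip1* (FDR = 0.0213), *Pidd1* (FDR = 0.0266) and *Gadd45b* (FDR = 0.0343). It gave 8 higher and 5 lower during recovery there (1651 and 1715 over all genes), adding *Gadd45g* (FDR = 0.00969), *Plk3* (FDR = 0.00228), *Trp53inp1* (FDR = 0.0383) and *Bcl2l1* (FDR = 0.0243). In control it added *Pmaip1* at EPS 0h (FDR = 0.0248) and *Plk2* (FDR = 0.0288) and *Eda2r* (FDR = 0.0109) at EPS 3h. Over all genes the block gave 3420 and 3562 at EPS 0h in control and 4146 and 4422 at EPS 3h. Counts over all genes were higher with the block than without it in each of the 9 comparisons.

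Genes around the pathway came from lists that hold none of the members. Their counts are to be read against the shares of all genes given above for each comparison. Of 26 other p53 target genes tested, 1 was higher and 0 lower at Rest (*Fbxw7*, 0.62), 2 and 1 at EPS 0h, then 2 and 2 at EPS 3h. After EPS 3 rose and 3 fell in control at EPS 0h, then 7 and 7 at EPS 3h, with 5 and 9 and then 7 and 10 in *Tug1* KD. During recovery the counts were 3 and 3 in control and 2 and 2 in *Tug1* KD. *Gdf15*, a stress cytokine, and *Sesn2* rose at EPS 0h in both arms (0.93 and 1.06 in control, 1.30 and 1.21 in *Tug1* KD), and *Psrc1* fell (-1.23 and -1.37) and rose again in recovery (1.52 and 1.64). Among 20 cofactors and modifiers of p53, 5 rose and 0 fell at EPS 0h in control and 7 and 1 at EPS 3h, with 7 and 0 and then 7 and 1 in *Tug1* KD. The median log2FC was 0.13 and 0.19 in control against -0.025 and -0.023 over all genes, and the deacetylase gene *Sirt1* (1.00 and 1.24) and the acetyltransferase gene *Crebbp* (0.80 and 0.88) rose at both times. With *Tug1* KD 1 was higher and 2 lower at Rest, 3 and 2 at EPS 0h, then 1 and 3 at EPS 3h, with the p53 kinase gene *Hipk2* higher at each (0.53, 0.73 and 0.67). In recovery 1 rose in control and 1 fell in *Tug1* KD.

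Of 24 genes of DNA damage signalling and double-strand break repair, 8 rose and 2 fell at EPS 0h in control and 8 and 5 at EPS 3h, with 9 and 3 and then 8 and 7 in *Tug1* KD. The checkpoint kinase gene *Chek1* rose (1.06 and 1.44 in control) as did *Brca1* (0.93 and 0.91), while *H2ax*, the histone variant marked at breaks, fell (-0.97 and -1.58). With *Tug1* KD 2 were higher and 1 lower at Rest, 3 and 0 at EPS 0h, then 2 and 1 at EPS 3h, with *Trp53bp1* higher at all 3 states (0.43, 0.55 and 0.46). In recovery 0 rose while 4 fell in control and 3 in *Tug1* KD. The 24 cell cycle genes that p53 lowers through p21 and the DREAM complex had a positive estimate with *Tug1* KD at Rest in 2, with a median of -0.24 against -0.027 over all genes. Of them 0 were called higher and 1 lower (*Aurka*, -0.34). In the set of replicates 1 to 3 that median was -0.074, and in the other set -0.38. At EPS 0h and EPS 3h 0 were higher and 2 lower. After EPS 6 rose and 4 fell at EPS 0h in control and 6 and 5 at EPS 3h, 7 and 5 and then 8 and 5 in *Tug1* KD, and in recovery 0 in control and 1 higher in *Tug1* KD. *Mcm4* rose (0.76 and 0.74 in control) and *Plk1* fell (-0.66 and -0.70). Of 15 immediate early genes, a check on the stimulus, 7 rose and 4 fell at EPS 0h in control and 10 and 3 at EPS 3h, 7 and 3 and then 11 and 2 in *Tug1* KD. The largest rise was that of *Nr4a3* (2.57 and 2.51 in control) and the largest fall that of *Junb* (-1.65 and -2.03). With *Tug1* KD 0 of these 15 were higher and 4 lower at Rest and again at EPS 0h, where 4.47% and 6.07% of all genes were lower, and 2 were lower at EPS 3h (*Nr4a2*, -0.73 at Rest). The estimate was positive for 1 at Rest and 0 at EPS 0h, with medians of -0.34 and -0.37. Split by replicate set, the Rest median came to -0.48 (numbers 1 to 3) and -0.091 (numbers 4 to 6). The EPS 0h median was more even, at -0.43 and -0.34 for the same sets. In recovery 3 rose in control and 7 in *Tug1* KD.

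Cell identity was read from 3 marker lists. All 10 myotube markers were detected in every group. Their summed level ranged from 16729.5 to 21181 CPM in Rest control and from 17286 to 23624.4 in Rest *Tug1* KD and from 16434.6 to 24426.2 over the 4 EPS groups. Of the list 0 were called in 7 of the 9 comparisons and 1 fell against Rest within *Tug1* KD at EPS 0h (*Tnnt3*, -0.48) and 1 at EPS 3h (*Myog*, -0.29). For *Tnnt3* replicates 1 to 3 gave -0.87 and the other set 0.0098. The 10 markers of undifferentiated myoblasts summed to 533.5 to 656.8 CPM in Rest control and 410.6 to 551.1 in Rest *Tug1* KD. Against control *Tug1* KD had 1 lower at Rest (*Id1*, -0.70), 1 at EPS 0h and 0 at EPS 3h. After EPS 4 rose and 3 fell in control at EPS 0h, then 2 and 5 at EPS 3h, 5 and 4 and then 3 and 5 in *Tug1* KD, and in recovery 5 fell in control and 6 in *Tug1* KD. At Rest the median myoblast sum was 566.0 CPM in control and 470.6 in *Tug1* KD, lower where the 5 members were higher. It was 568.4 to 622.6 CPM in EPS 0h control and 556.8 to 667.6 in EPS 0h *Tug1* KD, the latter above all Rest *Tug1* KD libraries. At EPS 3h this sum was 456.2 to 629.8 in control and 488.6 to 675.8 in *Tug1* KD. Any part of the marker sums in the results of the members was not tested. Of 8 markers of cell types not expected in the line 3 passed the filter. All 8 together summed to 3.47 to 6.57 CPM in Rest control, 1.82 to 2.96 in Rest *Tug1* KD, 8.59 to 13.0 in EPS 3h control and 9.03 to 16.2 in EPS 3h *Tug1* KD, with *Krt5* at 0 in every Rest library. With *Tug1* KD 1 of the 3 that passed was lower at Rest and 1 at EPS 3h. After EPS 1 rose and 1 fell in control at EPS 0h and 2 rose in *Tug1* KD, 2 rose and 1 fell in control at EPS 3h and 2 rose in *Tug1* KD, and in recovery 2 rose in each arm and 1 fell in *Tug1* KD. The macrophage marker *Cd68* was lower with *Tug1* KD at Rest (-1.02). The epithelial marker *Epcam* went from at most 1 count per library at Rest to 44 to 89 counts in EPS 3h control and 66 to 155 in EPS 3h *Tug1* KD. Its part in the EPS results above was not tested.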

How the data were processed

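RNA was sequenced from 36 C2C12 myotube cultures in 6 groups of 6. The deposited values are raw read counts per gene. Per the labels and the study's methods, the authors trimmed reads with fastp, aligned them to GRCm39 with STAR and tested counts with limma-voom; the strand setting of the counting is not given in the sources used here. From these counts, genes with at least 1 CPM in at least 12 libraries (13995) were fitted with edgeR 4.0.16 in R 4.3.3 (TMM factors, quasi-likelihood test, robust dispersion, all 36 libraries), and p-values were adjusted by Benjamini and Hochberg, with FDR below 0.05 called. SE was the absolute log2FC divided by the square root of F. DESeq2 1.42.0, limma-voom 3.58.1, library size scaling, no filter, a replicate block, a term for replicate set and each replicate set alone were alternatives. The fit was tested on simulated counts. Rows without a gene name held 0.0327% of the counts and were kept, under the same filter on low levels. Same-numbered libraries were taken as paired where all 6 correlations of their deviations were over 0.1, which held in 6 of 9 comparisons. The deviations were taken from group means and keep the difference between replicate sets. This rule therefore does not tell pairing by number from a shared set. The sources name no experiment or well for each replicate number, so p-values measure the spread between these libraries, part of which may be technical. Elements and coordinates were read from GRCm39 with the GENCODE annotation. *Trp53*, *Mdm2* and *Cdkn1a* were always named, with the 10 largest called members per comparison and up to 4 called genes of each other list, and the 3 members most like *Cdkn1a*. The members and lists were chosen with earlier results of these data known.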

Additional observations from a re-analysis of the deposited data

Results flagged for a closer look

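In 8 of 198 sets of 6 libraries (33 members in 6 groups, 4.04%), the highest or lowest library stood apart from the other five by Dixon's ratio, which chance gives in about 1 in 20. *Plk2*, *Tnfrsf10b* and *Aen* did so in Rest *Tug1* KD through replicate 6, at 497 CPM (the next library 391), 113 (85.5) and 139.7 (118). In Rest control replicate 6 was highest for *Trp53* at 123 CPM (101) and *Aen* at 93.4 (78.9), and replicate 4 was lowest for *Ercc5* at 27.8 (34.2). *Ccng1* was lowest in EPS 3h control replicate 3 at 150.3 CPM (205), and *Pidd1* in EPS 3h *Tug1* KD replicate 5 at 3.97 CPM (6.13).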

How the results depend on the processing

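No call on a member reversed its direction under any alternative, each of which was fitted to the same libraries or a part of them. Taking each replicate set alone turned the sign of the members' median log2FC with *Tug1* KD at Rest (-0.011 in replicates 1 to 3) and of their EPS 0h interaction (0.0023 in replicates 1 to 3), and of *Tnnt3* at EPS 0h within *Tug1* KD (0.0098 in replicates 4 to 6). For *Tug1* KD against control, members called at Rest were 5 higher and 0 lower, with 1 lower under the replicate block and under the term for replicate set. Over all genes the block gave 1137 lower there and the set term 1008 (625 in the main fit). At EPS 0h (1 higher, 3 lower) DESeq2 gave 2 and 5, library size scaling 5 lower, and the block and the set term 2 and 7 each. Over all genes DESeq2 gave 1242 and 1067 there and the set term 1721 and 1458 (1155 and 850 in the main fit). At EPS 3h (1 and 3) library size scaling gave 0 higher, no filter 0 and 1, and the block and the set term 3 higher. Over all genes 812 were higher there with library size scaling, 1514 with the block and 1376 with the set term (893 in the main fit). Without the filter, which leaves more genes to test, 506 were higher and 419 lower. After EPS, library size scaling gave 3 higher at EPS 3h in control (5 with TMM), with 8 under the set term, and 2 higher in *Tug1* KD (6), as did no filter. Over all genes the set term gave 4095 higher at EPS 3h in control, and no filter 7518 higher in *Tug1* KD. In *Tug1* KD the block gave 5 higher at EPS 0h (3), and during recovery (5) library size scaling and no filter gave 3 and the block and set term 8. For that recovery 1023 of all genes rose with library size scaling, 2486 without the filter, 1651 with the block and 1536 with the set term. The cause of these differences was not tested. Leaving out each Rest library in turn, an alternative chosen after seeing the data, gave 3 to 5 members higher with *Tug1* KD at Rest, with 3 without Rest control replicate 5, Rest control replicate 6 or Rest *Tug1* KD replicate 2. Same-numbered libraries did not meet the rule for pairing in *Tug1* KD at Rest (lowest r -0.077), recovery in control (-0.029) and EPS 3h in *Tug1* KD (0.077). There the replicate block added *Plk3* and *Zmat3*, then *Gadd45g* and *Aen*, then *Trp53*, *Plk3*, *Pidd1* and *Zmat3*. The block ended no member's call, and beyond those given here and in the results it changed no other member's call. The 101 log2FC values named include some that were not called, those of *Trp53* among them. Of the calls among these values, replicates 1 to 3 alone ended 17 and replicates 4 to 6 alone 13, each set with 3 libraries per group. Depth limits *Perp* and *Ddb2* most, with the lowest levels of all members.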
